A study of Homo sapiens with 16 samples.

Results

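The comparison described here sets U937 cells taken 24 h after induction of AML1-ETO against control cells taken at the same time. It holds 4 of the 16 arrays of the series, chosen by their labels: replicates 1 and 2 of the induced cells at 24 h, and replicates 1 and 2 of the control cells at 24 h. The study followed gene expression over 72 h after the fusion gene was switched on. U937 is an established human myeloid leukaemia line with monocytic features. Cells of all groups, controls included, carried an AML1-ETO construct under a tetracycline-controlled promoter, were grown in RPMI 1640 with fetal calf serum, and differed by induction and time. The labels give neither the agent that switched the construct nor whether the line is 1 clone. Total RNA was hybridised to Affymetrix U95Av2 arrays, which hold 12626 probe sets, and 7824 of these passed the filter on low values and were tested.

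AML1-ETO arises in acute myeloid leukaemia from a translocation between chromosomes 8 and 21. The fusion keeps the DNA-binding domain of RUNX1 (AML1), a transcription factor that blood cell formation requires, and joins it to most of RUNX1T1 (ETO), a protein that recruits co-repressors and histone deacetylases. The fusion is known for opposing RUNX1 and the myeloid factors C/EBP alpha and PU.1, for a block in granulocytic maturation and for slowing cell division when it is expressed at a high level.

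The intensity of a probe set is the deposited array signal on a linear scale, which is below 0 where the background estimate exceeded the signal. Values under a floor of 135.6 (the 40th percentile of all values) were raised to this floor before taking log2, so log2 differences are on this floored scale. A value called "at least" has control or induced arrays of the lower side at the floor. Median intensities of the 4 arrays lay between 238 and 338, and between 7.48% and 12.5% of the tested values of an array lay at the floor. The largest share at the floor and the lowest median belonged to control replicate 1. Of 9 myeloid markers with a probe set, 6 were above the floor on all 4 arrays (CD4, LYZ, MPO, SPI1, FCER1G and ITGB2), while CD68 and ANPEP were on none. So were 3 of 8 lymphoid markers (CD3E, CD79A and CD22), 1 of 2 erythroid (ALAS2) and 1 of 7 epithelial and fibroblast markers. A level above the floor thus does not by itself mark a cell type. The labels do not tell whether the replicates are separate cultures, and the spread behind each p-value may be only technical.

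The array labelled induced replicate 1 carried the ETO signal and the array labelled induced replicate 2 did not. RUNX1T1, whose sequence makes up the ETO part of the fusion, has 4 probe sets, and the 1 that was tested read 1592 on induced replicate 1 and -47.5 on induced replicate 2. The 2 control arrays of 24 h read 8.31 and -45.9, and all 8 control arrays of the series lay between -398.6 and 91.4. Induced replicate 2 thus lay within the range of the controls. Both later induced groups were far higher, with 8649.6 and 3974 at 48 h and 10603 and 8355 at 72 h. The difference for induced replicate 1 alone was at least 3.55 (log2), which did not pass the test (limma, Benjamini-Hochberg adjusted p = 0.101). It passed when limma was run without a mean-variance trend (adjusted p = 0.0170) and when the mean of all 4 control groups replaced the 24 h controls (adjusted p = 0.0234). Of the other 3 RUNX1T1 probe sets, none passed the filter.

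The induced arrays of 24 h differed by more than 2-fold in 594 of 7824 probe sets (7.59%), the fewest of the 8 replicate pairs of the series, of which the others had 858 to 1360. The 24 h controls differed by more than 2-fold in 1253. RUNX1T1 ranked 5th of 7824 by the size of the difference between the induced arrays. PLXND1, a semaphorin receptor, ranked 1st, with 2557 on replicate 1 and 160.9 on replicate 2 against 2718 and 1730 in the controls. PLXND1 was singled out after its values were seen. PLXND1 and RUNX1T1 were both called at 72 h (log2 -4.54 and 6.12).

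**Figure D1:**
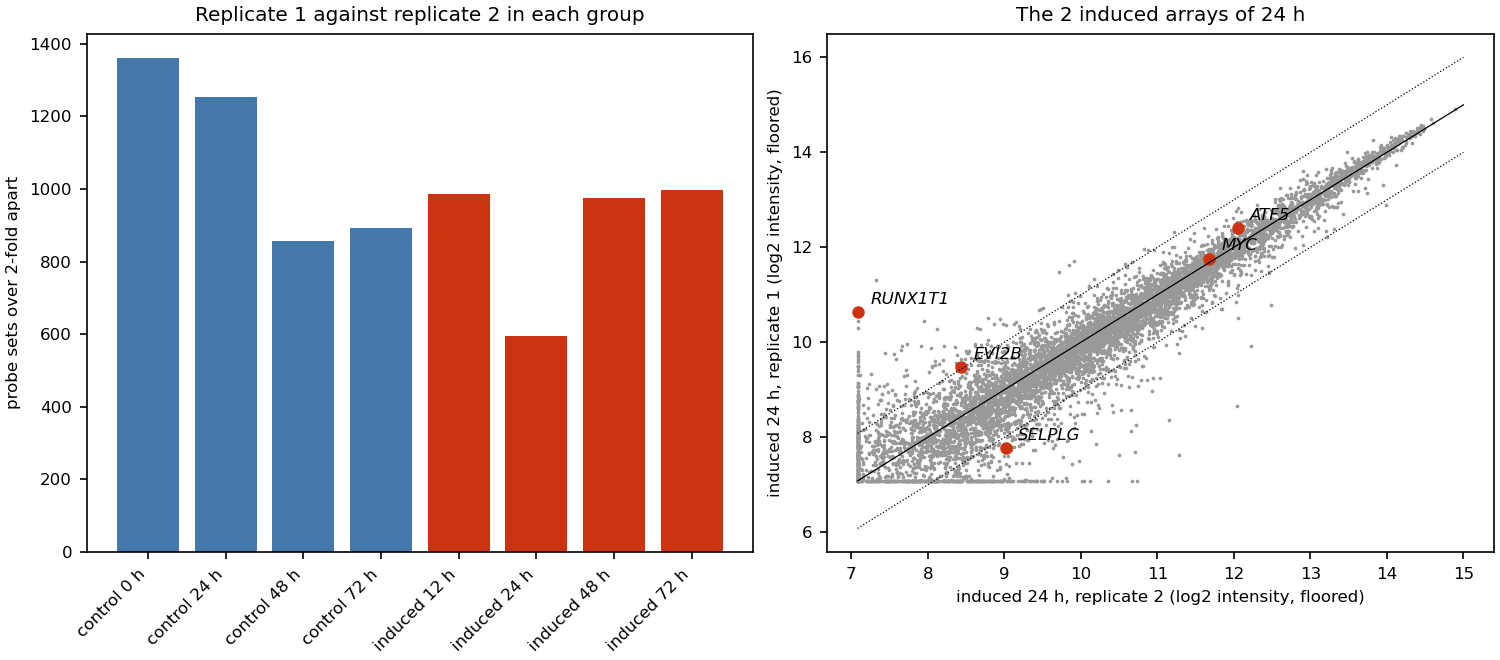
Left, the number of tested probe sets that differed by more than 2-fold between replicates 1 and 2 of each group (blue, control; red, induced). Right, log2 intensity of each tested probe set on induced 24 h replicate 1 (y axis) against replicate 2 (x axis), with the line of equality and dotted lines at 2-fold; RUNX1T1 lies far above the line, at the floor of replicate 2, while MYC and ATF5 lie near it.

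With both induced arrays, the number of probe sets called at 24 h at an adjusted p under 0.05 was 0 (0% of 7824, limma, Benjamini-Hochberg), and the smallest adjusted p was 0.0515. At 48 h 1499 probe sets passed (19.2%) and at 72 h 2348 (30%). At an unadjusted p under 0.05 there were 397 at 24 h (5.07% of those tested), 278 higher (3.55%) and 119 lower (1.52%) in induced cells. About such a share falls under this threshold when the groups do not differ, so these are not a set of changed probe sets. This split depended on scaling: it was 265 to 184 after quantile normalization and 183 to 207 after centring each array on its median. It depended also on the controls, with 259 higher and 245 lower without control replicate 1, and 473 higher and 127 lower (600 in all) without control replicate 2. Without induced replicate 2 the number was 263. Both induced arrays lay above both controls in 1604 probe sets (20.5%) and below both in 1071 (13.7%), so that the groups did not overlap in 34.2%. With 2 arrays against 2, about such a share is free of overlap when the groups do not differ. Set against all 8 controls of the series, both induced arrays lay above every one in 384 probe sets (4.91%) and below every one in 196 (2.51%). Some probe sets stand outside all 8 controls without a difference too. Below, a lack of overlap and a place outside all 8 controls describe values and are not tests. Taken alone, induced replicate 1 gave 0 called probe sets and induced replicate 2 gave 1 (0.0128%), that of LYZL6. Since no gene passed with both arrays, the values below describe levels and differences at 24 h that did not pass the test unless it is said that they did.

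**Figure D2:**
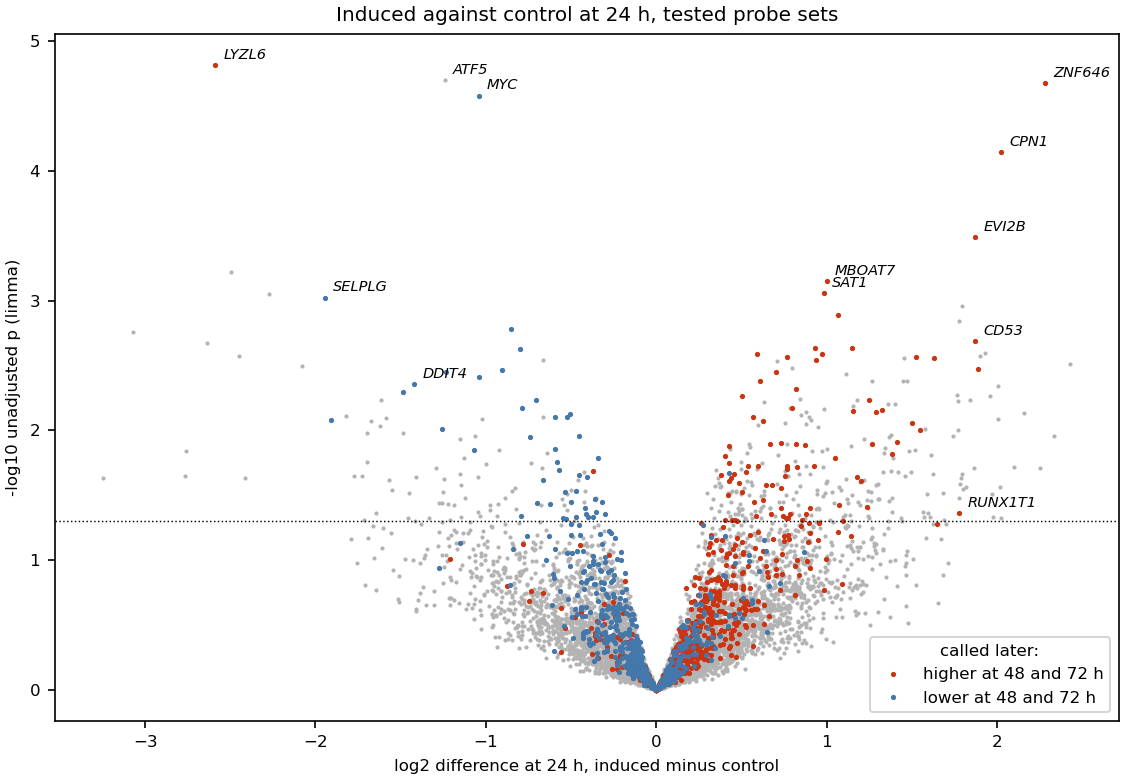
Each point is a tested probe set, with its log2 difference at 24 h (induced minus control, x axis) and -log10 of its unadjusted limma p (y axis; dotted line, the unadjusted threshold). Red and blue mark probe sets called higher and lower at both 48 and 72 h; MYC and SELPLG, blue, lie on the left and EVI2B, CD53 and CPN1, red, on the right, while LYZL6 is red and lies on the left.

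MYC, the transcription factor that drives growth and ribosome synthesis, had 1 of the largest test statistics among lower genes, though others had larger differences. Its main probe set read 6549.8 and 7399 in the controls and 3479 and 3283 in the induced cells. Both induced arrays were below all 8 controls of the series, of which the lowest read 4539. The log2 difference was -1.04 (SE 0.17, limma adjusted p = 0.0515). The other 3 MYC probe sets were also lower, at log2 -1.04, -0.79 and -1.24. MYC was called lower at 48 h (log2 -2.95) and at 72 h (log2 -2.94). At 12 h the induced arrays had read 8714 and 9538 on the main probe set, above every control. Not every MYC probe set did so: another read 6035 and 8370 at 12 h, where the controls reached 7218.

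ATF5, a transcription factor of the amino acid and mitochondrial stress responses, read 10194 and 12620 in the controls against 5426 and 4236. The groups did not overlap, and both induced arrays were below all 8 controls (log2 -1.24, SE 0.19, limma adjusted p = 0.0515). Unlike MYC, ATF5 was already at 4072 and 4558 on the induced arrays of 12 h, and its difference was smaller later, at log2 -0.50 at 48 h (not called) and -0.77 at 72 h (called). DDIT4, an inhibitor of mTORC1 that stress induces, read 3263 and 4128 against 1621 and 1162, and 1485 and 1189.8 at 12 h (log2 -1.42 at 24 h, SE 0.41). It was called at 48 h (log2 -3.08) and 72 h (log2 -4.48). Because the controls at 12 h were not analysed here, no time-matched difference was formed for 12 h.

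LYZL6, a gene of the lysozyme family, had the largest test statistic. Its probe set read 3798 and 2951 in the controls, 816 on induced replicate 1 and 379 on induced replicate 2. Both induced arrays were below all 8 controls, of which the lowest read 953. The log2 difference was -2.59 (SE 0.39, limma adjusted p = 0.0515), and replicate 2 alone fell by 3.14 on the log2 scale (limma adjusted p = 0.0481). Relative to the controls of the same time LYZL6 rose, by 1.55 at 48 h (adjusted p = 0.0133) and 2.00 at 72 h (adjusted p = 0.00160), so the sign at 24 h was opposite to the later one. The controls were themselves lower then, at 1426 and 1307 at 48 h and 1117 and 953 at 72 h, while the induced arrays read 3236 and 4970.6, and 2739 and 6185.

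SELPLG, the P-selectin ligand of leukocytes, read 967 and 1732 in the controls, 218 on replicate 1 and 519 on replicate 2 (log2 -1.94, SE 0.46). Both were below all 8 controls, and the difference was larger for replicate 1 (-2.57) than for replicate 2 (-1.32). CBFA2T3, a member of the ETO family of co-repressors, read 287 and 476 against -61.4 and 177, also below all 8 controls (log2 at least 1.25 lower). ZFP36L2, an RNA-binding protein that promotes mRNA decay, read 13940.4 and 16205 against 7375 and 10092 (log2 -0.80). ASS1, which makes argininosuccinate for arginine synthesis, read 3864 and 4397 against 2653 and 1958 (log2 -0.85). SLC1A4, a neutral amino acid transporter, read 6060.0 and 6609 against 2792 and 4089 (log2 -0.91). Each of these was below all 8 controls on both induced arrays, and each was called lower at 48 and 72 h. CBFA2T3 was named only by a rule that required those later calls, so for it they are not a separate result.

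Other genes lower at 24 h were not called lower at both later times. MYOG, a muscle transcription factor, read 943 and 1079 against 21.6 and 194, and was called higher at 72 h (log2 2.00). PVR, a cell adhesion receptor, read 721 and 1136 against 34.3 and 189.7, and was called higher at 72 h (log2 2.18), while its other tested probe set differed in sign at 24 h (0.35) and at 72 h (-0.72). For MYOG, PVR, NNAT, RAI14 and L1CAM at least 1 control array of another time read lower than an induced array of 24 h. PDPK1, the kinase that activates AKT, read 3311 and 3330.1 against 2128 and 2070.1 (log2 -0.66), below all 8 controls, and did not pass at 48 or 72 h. SGSH, a lysosomal sulfatase, read 889 and 952 against 209 and 24.9, also below all 8 controls.

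Genes higher at 24 h included several that were also called higher at both later times. EVI2B, CD53 and ANXA1 were picked in part by a rule that required those later calls. EVI2B, a transmembrane protein of blood cells, read -13.0 and 56.0 in the controls, 710.3 on replicate 1 and 347 on replicate 2. Both induced arrays were above all 8 controls (log2 at least 1.87, SE 0.39, limma adjusted p = 0.423). CD53, a tetraspanin of leukocytes, read -1.93 and 128 against 625 and 392 (log2 at least 1.87, SE 0.49). Both genes were further above the controls on replicate 1 (at least 2.39 for EVI2B and 2.20 for CD53) than on replicate 2 (at least 1.36 and 1.53). ANXA1, the phospholipid-binding annexin A1, read 425 and 244 against 1005 and 991, nearly the same on both induced arrays (log2 1.63, SE 0.44).

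CPN1, a subunit of a plasma carboxypeptidase, read -13.4 and -127 in the controls and 549 and 553 in the induced cells (log2 at least 2.02, SE 0.36, limma adjusted p = 0.113). ZNF646, a zinc finger protein, read -139 and -698.9 against 689 and 629 (log2 at least 2.28, SE 0.35, limma adjusted p = 0.0515). Both were above all 8 controls. They passed when limma was run without a trend, at an adjusted p of 0.00673 for CPN1 and 0.00348 for ZNF646. MBOAT7, a lysophospholipid acyltransferase, read 4111 and 2425 against 6309 and 6318 (log2 1.00). LMO2, a LIM protein of blood transcription complexes, read 1108 and 1869 against 2635 and 2858 (log2 0.93). WSB1, a substrate adaptor of a ubiquitin ligase, read 2223 and 3272 against 5969 and 5336 (log2 1.07). JUP (plakoglobin), a junction protein that AML1-ETO raised in other work, read 557 and 906 against 1239.65 and 1994 (log2 1.15).

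Not all of these stood apart from every control. SAT1, the polyamine acetyltransferase, read 439 and 447 against 889 and 860.5 (log2 0.98), but controls of the series reached 1614, and the difference was -0.03 against the mean of all 4 control groups. WSB1, JUP, EXT1, RASA3 and TP53BP1 also had at least 1 control array of another time above an induced array. PEMT, an enzyme of phosphatidylcholine synthesis, read 237 and 136 against 760.3 and 499, above all 8 controls (log2 1.78), and was not higher at 48 h (log2 -0.53) or 72 h (log2 -0.69). PCGF3 and SAP18, which belong to repressor complexes, and GRM2, a glutamate receptor, were above all 8 controls, with 2339.9 or more against at most 1751 for PCGF3. Other tested probe sets differed in sign for TULP3 (-0.25 against at least 1.55), SAP18 (-0.20 and -0.01 against 0.59) and TP53BP1 (-0.10 against 1.93).

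**Figure D3:**
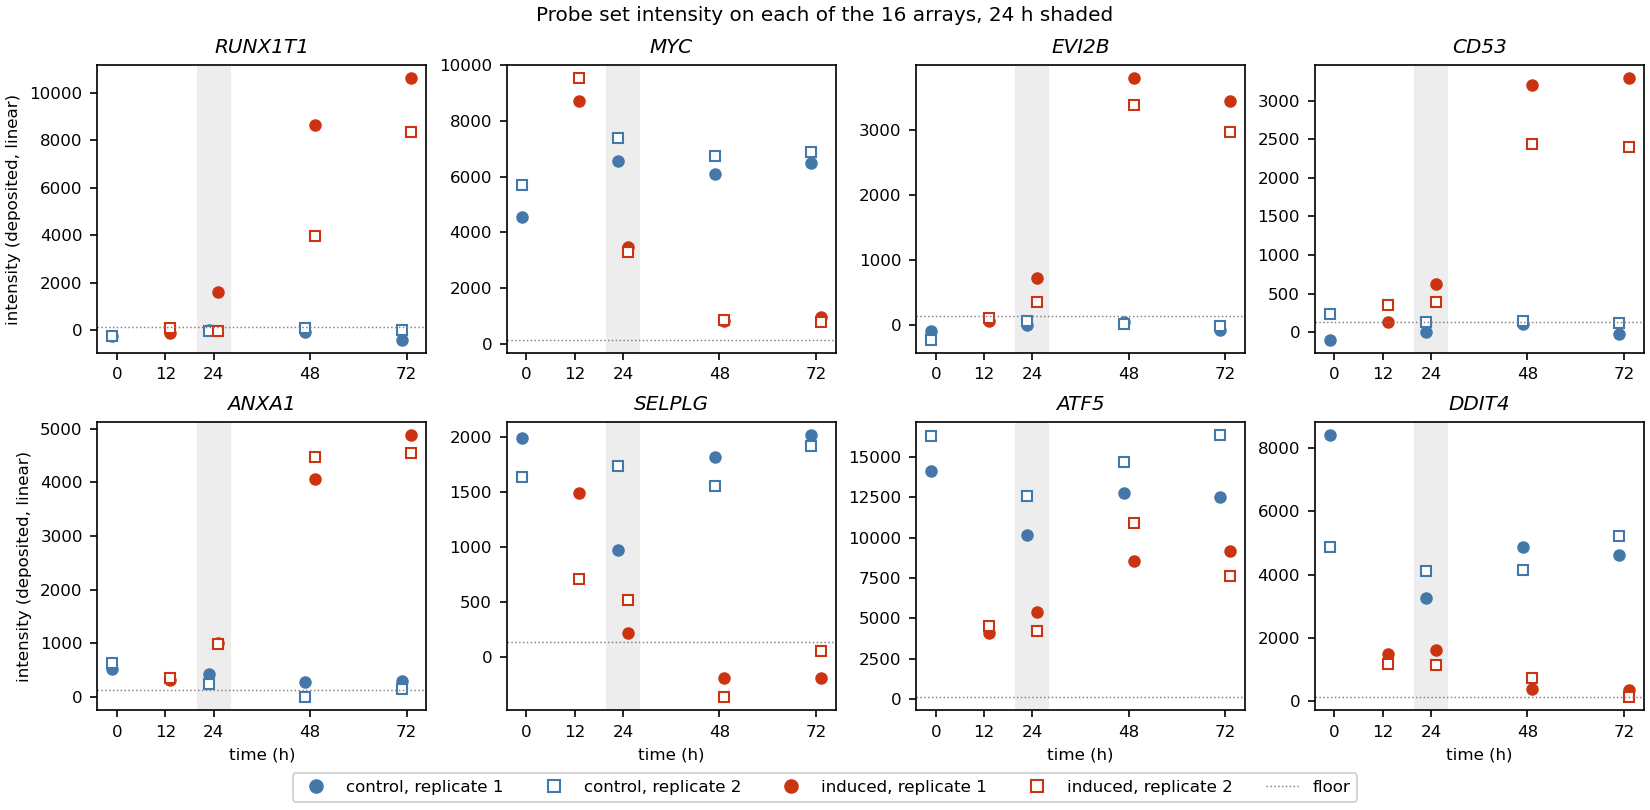
Intensity of 8 probe sets on each of the 16 arrays against time (blue, control; red, induced; filled circles, replicate 1; open squares, replicate 2; dotted line, the floor; 24 h shaded). At 24 h RUNX1T1 is high on 1 induced array, MYC, SELPLG, ATF5 and DDIT4 are low on both, and EVI2B, CD53 and ANXA1 are above the controls on both and far below their values at 48 and 72 h.

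Promoters were searched only for genes named for the largest test statistics at 24 h, or for the largest 24 h differences among genes called later. Other genes named here were not searched. Promoter sequences are shown for LYZL6 and OCLN, the searched genes with a match to the core RUNX motif. Sequences are also shown for CBFA2T3, the ETO family member, and for CD53, a gene higher at 24 h. They span 250 bases before to 50 after the RefSeq start site on GRCh38.p14, and capitals mark the motif TGTGGT or, on the other strand, ACCACA.
LYZL6, chr17:35943664-35943963, minus strand: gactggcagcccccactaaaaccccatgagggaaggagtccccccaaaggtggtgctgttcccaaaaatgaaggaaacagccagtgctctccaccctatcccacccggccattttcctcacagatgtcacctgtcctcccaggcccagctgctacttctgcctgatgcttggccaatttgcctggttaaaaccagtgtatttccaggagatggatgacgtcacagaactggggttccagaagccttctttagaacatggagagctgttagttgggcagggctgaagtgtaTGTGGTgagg
OCLN, chr5:69492297-69492596, plus strand: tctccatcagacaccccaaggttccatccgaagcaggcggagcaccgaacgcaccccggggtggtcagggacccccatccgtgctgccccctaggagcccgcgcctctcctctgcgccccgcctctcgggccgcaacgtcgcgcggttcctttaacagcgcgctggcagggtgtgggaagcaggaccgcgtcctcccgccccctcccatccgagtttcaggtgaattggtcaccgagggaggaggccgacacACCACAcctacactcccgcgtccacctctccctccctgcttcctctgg
CBFA2T3, chr16:88941301-88941600, minus strand: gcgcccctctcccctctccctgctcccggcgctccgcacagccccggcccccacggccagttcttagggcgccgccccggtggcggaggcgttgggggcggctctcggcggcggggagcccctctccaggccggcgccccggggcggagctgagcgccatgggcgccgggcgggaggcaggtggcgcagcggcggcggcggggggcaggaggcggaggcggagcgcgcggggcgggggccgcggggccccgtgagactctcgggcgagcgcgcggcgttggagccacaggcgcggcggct
CD53, chr1:110870960-110871259, plus strand: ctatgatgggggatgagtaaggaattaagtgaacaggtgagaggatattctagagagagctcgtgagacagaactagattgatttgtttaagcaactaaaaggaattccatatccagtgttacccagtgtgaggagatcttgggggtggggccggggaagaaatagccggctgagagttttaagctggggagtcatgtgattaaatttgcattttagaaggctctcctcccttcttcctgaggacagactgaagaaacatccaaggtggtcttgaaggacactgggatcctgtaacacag
The match begins 40 bases after the start site in LYZL6 and 2 bases after it in OCLN. Neither CBFA2T3 nor CD53 holds these letters in the window.

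OCLN, the tight junction protein occludin, read 1271 and 204 in the controls against -87.5 and -192 (log2 at least 1.91 lower) and was called lower at 48 and 72 h. The rule that named OCLN required those later calls. The 0 h controls read -449.6 and -77.1, also under the floor, so OCLN was not below all 8 controls. At 24 h it passed only when control replicate 2 was left out (log2 -3.23, limma adjusted p = 0.0368). Of 13 searched genes lower at 24 h with a promoter entry, 2 held the motif, and of 15 searched higher genes 0 did. The share was 13.1% of 27305 promoters of the same length and 10.0% of the 4599 tested genes with an entry. These matches are descriptions of letters in a window, and binding was not measured.

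CEBPA, SPI1 and IRF8 were further below the controls on induced replicate 1 than on replicate 2, while other myeloid genes varied. LYL1 (log2 -0.32 on replicate 1 and -0.39 on replicate 2) and CST7 (-0.57 and -0.60) were about level. PRTN3 gave 0.22 and 1.06. Of the phagocyte genes, CSF3R gave 0.90 and 2.01, and FPR1 was lower by at least 2.72 on replicate 1 and by 0.83 on replicate 2. CEBPA, which encodes C/EBP alpha, read 9782 and 12314 in the controls, 6477 on replicate 1 and 8821 on replicate 2 (log2 -0.54, SE 0.22), with -0.76 for replicate 1 and -0.32 for replicate 2. SPI1, which encodes PU.1, read 2742 and 2622 against 1825 and 2428. IRF8, which directs monocyte differentiation, read 6396 and 5670 against 3481 and 4758 (log2 -0.57, SE 0.39). In all 3 genes replicate 1 was the lower induced array and replicate 2 lay nearer to the controls. CTSG, the granule protease cathepsin G, read 5507 and 5159 against 4132 and 6114, so that the induced arrays fell on both sides of the controls. TNFRSF10B, a TRAIL receptor, read 2314 and 2720 against 607 on replicate 1 and 2094 on replicate 2. With 1 array each, these differences between the induced replicates were not tested.

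Of 24 tested myeloid transcription factors, both induced arrays were below both controls in 9 and above in 1, against 14.2% below and 20.3% above among all 5606 genes. The list's median log2 difference was -0.34 for replicate 1 and -0.07 for replicate 2, where all genes had 0 and 0.07. MYB, a progenitor factor, read 3955 and 3059 against 2279 and 2412. LYL1, a partner of E proteins, read 6309 and 7004 against 5330 and 5079. Of 14 genes lowered by AML1-ETO in other work, 5 were below on both arrays and 1 above (median -0.27 for replicate 1 and -0.09 for replicate 2). OGG1, a DNA repair glycosylase of this list, read 2788 and 2273 against 1424 and 1955. Of 10 genes raised in other work, 4 were above and 2 below (median 0.00), so members went both ways. ID1, an inhibitor of differentiation factors, read 1357 and 1479 against 1964 and 3602, and JUP was also higher. MYC (log2 -1.04) and BCL2 (log2 -0.63) of the same list were lower, and BCL2 read 1507 and 2351 against 1185 and 1252. Among 13 primary granule proteins the median was -0.08. CST7 (cystatin F) read 7974 and 7867 against 5331 and 5230, while PRTN3 (proteinase 3) read 2727 and 2614 against 3116 and 5575.

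Genes of mitosis were higher on both induced arrays. Of 35 tested, 23 were above both controls (65.7%, against 20.3% of all genes) and 0 below. An unadjusted p under 0.05 was reached by 8 (22.9%), all higher, against 3.94% of all genes. The median log2 difference was 0.35, with 0.31 for replicate 1 and 0.34 for replicate 2, and between 0.27 and 0.36 under every alternative setting that was run. AURKA, a mitotic kinase, read 1644 and 1439 against 2758 and 2905. PLK1, another mitotic kinase, read 7854 and 8287 against 10359.6 and 10183, above all 8 controls. KIF14, a kinesin of cytokinesis, read 3472 and 3445 against 4992 and 5149.7. At 48 h 7 of the 35 were called higher and 0 lower, and at 72 h 0 were called higher and 22 lower. Of all tested probe sets 10.5% were called higher at 48 h and 13.9% lower at 72 h. The change from 24 h to 72 h passed the test of the difference in 22 of the 35, all lower at 72 h. Of all tested probe sets 8.55% passed in that direction.

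Among DNA replication genes 16 of 42 were above both controls (38.1%, against 20.3% of all genes) and 6 below. Their median was 0.06, and the sign turned after median centring (-0.01). MCM2, a subunit of the replicative helicase, read 17868 and 18594 against 16518 and 11460, and GINS1, its cofactor, read 1582 and 1615 against 2311 and 2647. By 72 h 35 of the 42 were called lower, against 13.9% of all tested probe sets. CDKN1A, the cell cycle inhibitor p21, was under the floor on all 4 arrays of 24 h and was called higher at 48 h (log2 at least 3.76) and 72 h (log2 at least 4.70).

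Amino acid response and tRNA charging genes were lower on both induced arrays. Of 26 tested, 16 were below both controls (61.5%, against 14.2% of all genes) and 1 above. An unadjusted p under 0.05 was reached by 7 (26.9%), all lower, against 1.62% of all genes. The median was -0.23, with -0.18 for replicate 1 and -0.34 for replicate 2, and between -0.34 and -0.18 under the alternative settings. SLC3A2, the heavy chain of amino acid exchangers, read 14826 and 13697 against 9481 and 10589 (log2 -0.51). SLC1A5, a glutamine transporter, read 16345 and 14196 against 12440.5 and 11599.8 (log2 -0.34). SLC7A5, the light chain partner of SLC3A2, read 24092 and 22261 against 18691 and 20564 (log2 -0.24). By 48 h 18 of the 26 were called lower and by 72 h 23, against 8.68% and 13.9% of all tested probe sets.

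Ribosomal protein genes were lower by a small amount (median -0.18). Of 45 tested, 18 were below both controls (40%, against 14.2% of all genes) and 0 above. RPS3 read 28320.4 and 23265 against 20821 and 19793, and RPS14 read 23889 and 17680 against 15801 and 15208. Without control replicate 1 the median was -0.01, so it rested on that array. Among 24 MYC target and ribosome biogenesis genes 8 were below (33.3%) and 1 above. Their median was -0.17, but it was 0.10 against the mean of all 4 control groups. NPM1 read 22905 and 18454 against 17283 and 16606, and NCL 19529 and 18474 against 16934 and 16514. At 48 h 19 of these 24 were called lower, against 8.68% of all tested probe sets.

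Among 51 oxidative phosphorylation genes 16 were above both controls (31.4%, against 20.3% of all genes) and 1 below. The median was 0.19, with 0.25 and 0.11 for replicates 1 and 2, and it was 0.07 without control replicate 2 and 0.08 against the mean of all 4 control groups. NDUFS5, a subunit of complex I, read 5819 and 6476 against 9849.6 and 9202, and NDUFV2, another, read 5672 and 4224 against 7873 and 6952. Proteasome genes had a median of 0.18, with 13 of 30 above (43.3%) and 1 below, and the median lay between 0.10 after median centring and 0.35 against all 4 control groups. PSMA3 read 5679.8 and 4332 against 6369.7 and 6991, and PSMC1 read 7407 and 6271 against 8346 and 9188. Among 22 apoptosis genes 11 were above (50%) and 1 below. Their median was 0.20, and it lay between 0.08 with no filter and 0.34 without control replicate 2. MCL1, an anti-apoptotic protein, read 3383 and 4197 against 6053 and 6212, CASP4 read 1034 and 1110.4 against 2043 and 1631, and BCL2L1 read 1141 and 1191 against 1800.3 and 2406.

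Lists that were called widely at 72 h were near 0 at 24 h in several cases. The median was -0.04 for 29 interferon response genes, -0.05 for 23 NF-kB and inflammatory genes and -0.08 for 12 replication-dependent histones. Of these 16, 14 and 10 were called higher at 72 h, against 16.1% of all tested probe sets. Glycolysis and hypoxia genes had a median of -0.17. Of 25 tested, 9 were below (36%, against 14.2% of all genes) and 1 above. Among markers of other cell types, 3 of 7 tested epithelial and fibroblast genes were below (42.9%) and 0 above. Their median was -0.66 (-0.30 for replicate 1 and -0.72 for replicate 2). That median was 0 with no filter on low values and -0.18 without control replicate 2. For 12 tested lymphoid markers the median was 0.22, with 0 and 0.42 for replicates 1 and 2. COL1A1 read 2012 and 2492 against 684 and 1361, COL6A1 read 3756 and 2618 against 2115 and 969, and CDH1 read 383 and 468 against -90.2 and -13.9. Of the 7 such markers with a probe set in the marker list, only COL1A1 was above the floor on all 4 arrays, and KRT5, EPCAM and COL3A1 were above it on none. The summed level of that marker list was 2466 and 3344 in the controls and 971 and 1631 in induced cells, and its part in the other differences was not tested.

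**Figure D4:**
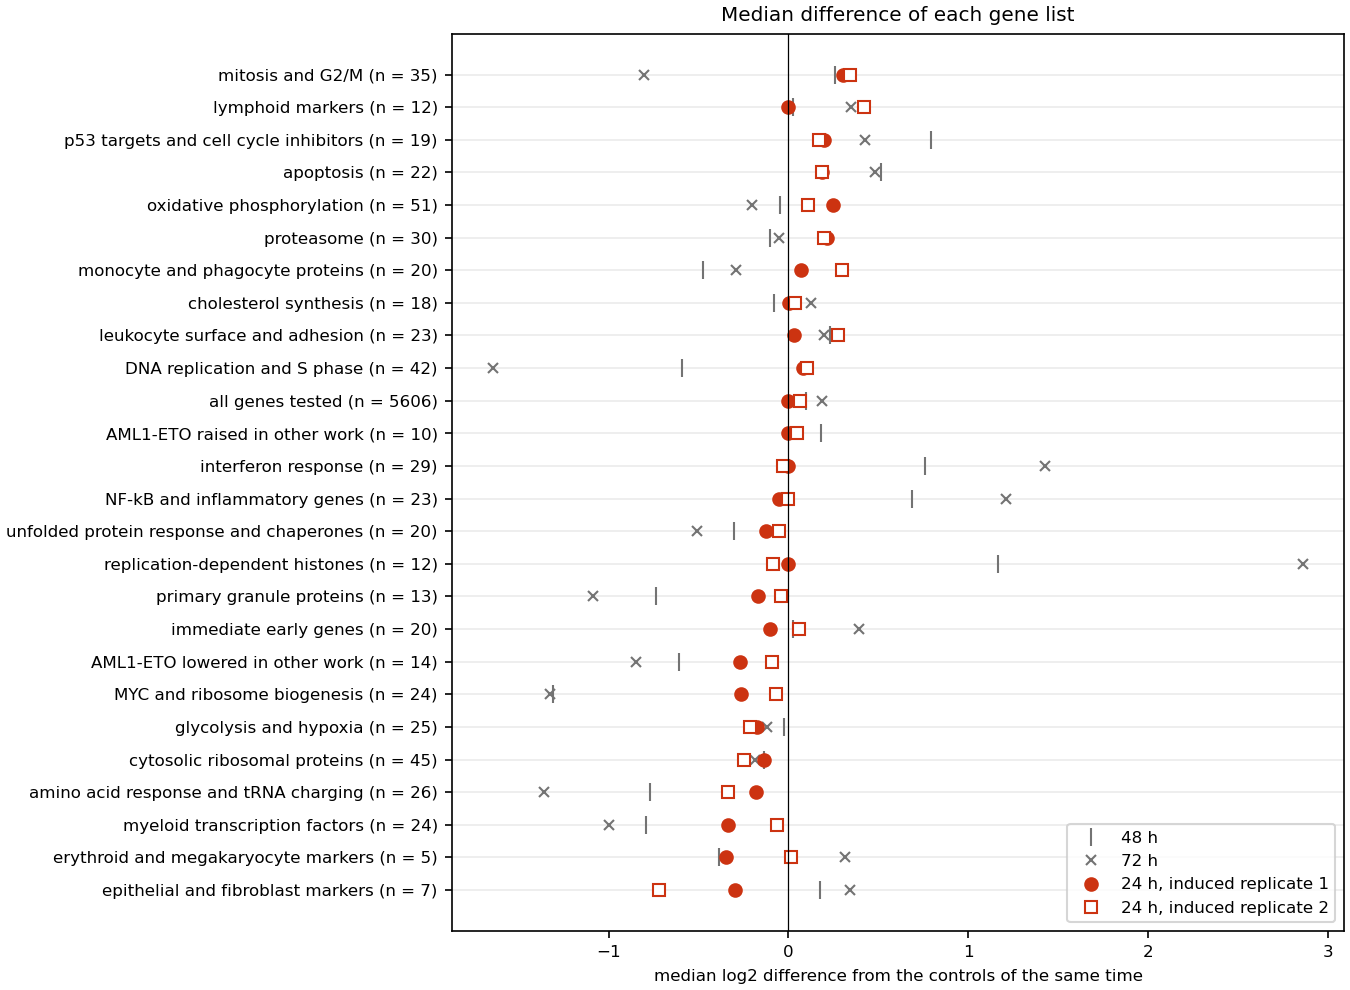
Median log2 difference of each gene list from the controls of the same time (x axis), with the number of tested genes; red circles and open squares are induced replicates 1 and 2 at 24 h, grey bars 48 h and grey crosses 72 h. Mitosis lies at 0.31 and 0.34 at 24 h and below 0 at 72 h; the amino acid list and the myeloid factors lie below 0 at all 3 times.

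The arrays of 48 and 72 h are separate from those of 24 h, so genes called there could be read back at 24 h. In all, 1219 probe sets (15.6%) were called in 1 direction at both later times, 646 higher and 573 lower. Their median difference in the later direction was 0.15 on the log2 scale at 24 h. It was 1.36 for the effect at 48 h and 1.66 for that at 72 h. Of these probe sets, 72.9% had the later sign at 24 h. For all 7824 probe sets these values at 24 h were 0.07 and 57.5%. The median rested on the controls: it was 0.07 (58.9% with the later sign) without control replicate 1 and 0.23 (76.7%) without control replicate 2.

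The share with the later direction was also taken for each induced array, where all tested probe sets gave 55.5% on replicate 1 and 57.1% on replicate 2. Of the 646 later rises, 74.9% were higher on replicate 1 (median 0.22) and 69.7% on replicate 2 (median 0.19). Of the 573 later falls, 73.3% were lower on replicate 1 (median -0.15) and 59.7% on replicate 2 (median -0.06). Both replicates were set against the same controls, so these shares are not independent of each other. Compared directly, replicate 1 was below replicate 2 in 349 of the later falls (60.9%) and above it in 336 of the later rises (52.0%), where all tested probe sets gave 53.6% below and 42.4% above. Both induced arrays lay above both controls in 262 later rises (40.6%) and 43 of the 573 later falls. Both lay below in 178 later falls (31.1%) and 21 later rises (3.25%).

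Read forward, 101 of the 278 probe sets higher at 24 h at an unadjusted p under 0.05 were called higher at 48 h (36.3%) and 5 lower, where 10.5% of all tested probe sets were called higher. Of the 119 lower at 24 h, 46 were called lower at 48 h (38.7%) and 2 higher, where 8.68% were called lower. At 72 h 102 of the 278 were called higher and 25 lower, and 50 of the 119 were called lower and 10 higher. Of all tested probe sets 16.1% were called higher and 13.9% lower at 72 h. The tests at all times used the same estimate of spread for a probe set. A probe set with a small estimate passes each more readily, so the shares over all probe sets are not a neutral baseline.

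**Figure D5:**
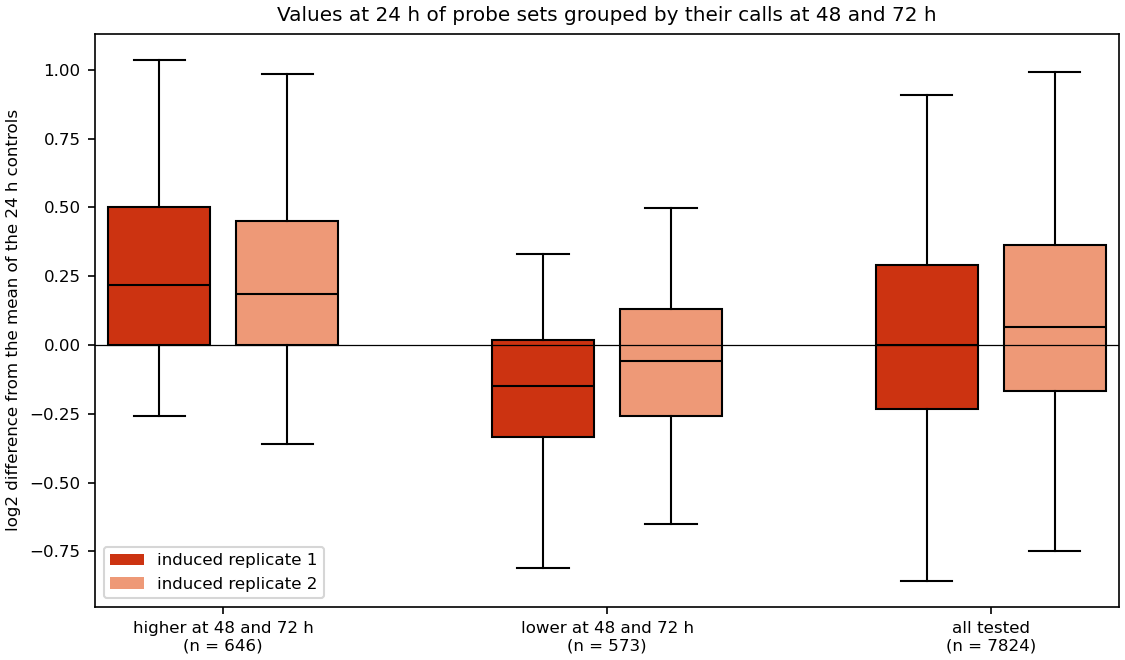
Log2 difference at 24 h from the mean of the 24 h controls for each induced array (dark, replicate 1; light, replicate 2), for probe sets called higher or lower at both 48 and 72 h and for all tested. Boxes span the quartiles with the median as a line, and whiskers the 5th to 95th percentile. The medians of both arrays lie above 0 for later rises and below 0 for later falls, the latter less so on replicate 2. Both boxes of the later falls reach above 0 (upper quartile 0.02 on replicate 1 and 0.13 on replicate 2).

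The effect at 24 h was compared with the later effects by a test of the difference itself. The effect at 48 h differed from that at 24 h in 382 probe sets (4.88%, limma, Benjamini-Hochberg), 141 in the direction of higher values at 48 h (1.8%) and 241 of lower (3.08%). At 72 h the number was 1135 (14.5%), 466 higher (5.96%) and 669 lower (8.55%). The first number fell to 218 without induced replicate 1 of 24 h, to 126 without induced replicate 2 and to 201 without control replicate 2, and the second to 720 without induced replicate 2. IL17RA, an interleukin 17 receptor subunit, read 2410.2 and 2539.6 in the controls and 1346 and 1633 in induced cells of 24 h, and its effect at 48 h was lower by 3.55 (log2, adjusted p = 0.000510). KCNAB2, a potassium channel subunit, read 3239 and 4256 against 2689 and 2783, and its later effect was lower by 3.88. MAGED2 read 1059.9 and 1319.5 against 1795 and 1199, and its effect at 48 h was higher by 3.17. POLD1, the catalytic subunit of DNA polymerase delta, read 3131 and 3726 against 3779.8 and 3039 at 24 h, and its effect at 72 h was lower by 5.17 (adjusted p = 3.90e-07).

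For some genes higher or lower at 24 h, a further change was not shown. The test of the difference did not pass at 48 or 72 h for MBOAT7 (0.10 and 0.46, log2), LMO2 (0.13 and 0.53), ZNF646 (-1.17 and 0.72), ATF5 (0.74 and 0.47) or SPTB (-1.46 and -1.36). These are not shown to have reached their later level, since the SE of such a difference was 0.27 to 0.63 for these 5 genes.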

How the data were processed

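Per the labels' protocols, RNA isolated with TRIzol was labelled as biotin cRNA and applied to Affymetrix U95Av2 arrays. The deposited values are linear intensity values, 1 per probe set and array, which the authors multiplied by a scale factor per array, per the labels (0.847 to 1.20 for the 4 arrays). The software that summarised the probe sets is not given in the sources used. Values under the 40th percentile of all values (135.6) were set to it before log2. Probe sets above the median of all values (292.7) on at least 2 of 16 arrays were tested, with 67 control probe sets left out. Of all probe sets 10961 had 1 gene symbol in the platform annotation, which can be old, 546 had several and 1119 none, and only the first were named.

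In R 4.3.3, limma 3.58.1 (lmFit, and eBayes with a mean-variance trend) fitted a mean for each of the 8 groups over the 16 arrays, with two-sided tests, with Benjamini-Hochberg adjustment over 7824 probe sets and a call at an adjusted p under 0.05. For each induced array alone, the other was left out, and the lone array was assumed to vary like the other groups. With 2 arrays a group, their number limits the precision. The model was tested on simulated data. The replicate numbers were not taken as pairs, since deviations of same-numbered arrays correlated at -0.15 to 0.25 over the 28 pairs of groups.

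Gene lists entered with 1 probe set a gene, that of the highest mean, over 5606 genes, and are described by counts and medians with no set test. Named genes are the 15 largest test statistics in each direction with groups that did not overlap at 24 h, the 8 in each direction with the largest 24 h difference among genes called at both later times, those called for 1 array alone, the 6 smallest p-values of each difference between times, up to 4 members of each list, and 10 fixed genes, of which not all are printed. The members and lists were chosen with earlier results of these data known. Alternatives changed the floor, log scale, scaling, filter, prior, controls, blocking and arrays used. Promoters came from RefSeq (GRCh38.p14).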

Additional observations from a re-analysis of the deposited data

Results flagged for a closer look

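The effect of induction differed between 24 h and a later time by a test of the difference itself (limma, Benjamini-Hochberg adjusted p under 0.05) in 382 probe sets at 48 h and 1135 at 72 h. The values below are log2 differences, the later effect less that at 24 h, for the named genes that passed. All later effects share the 24 h arrays, so the differences at 48 and 72 h are not independent of each other.

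LYZL6 was below the controls at 24 h and above them later, with 4.14 at 48 h and 4.59 at 72 h. MYOG (4.64) and PVR (4.67) did likewise at 72 h. Genes above the controls at 24 h and below them later included PRTN3 (-2.28 at 48 h and -4.20 at 72 h) and PSMA3 (-1.29 at both times). At 72 h they also included AURKA (-1.72), PLK1 (-1.02), KIF14 (-1.004), GINS1 (-2.74), ID1 (-1.77), NDUFS5 (-1.28) and PEMT (-2.47).

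Genes whose effect was higher later than at 24 h were ANXA1 (2.81 at 48 h and 2.91 at 72 h), EVI2B (2.85 and 2.68), MAGED2 (3.17 and 2.93) and CDKN1A (3.76 and 4.70). At 72 h RUNX1T1 (4.34), CD53 (2.50), JUP (2.09), SAT1 (1.23) and MCL1 (1.19) passed as well.

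Myeloid genes had a lower effect later. The differences at 48 and 72 h were -1.97 and -2.09 for CEBPA, -3.25 and -3.07 for SPI1, -4.29 and -5.12 for IRF8, -1.69 and -2.78 for LYL1, and -1.74 and -2.18 for CST7. CTSG gave -2.43 and -3.68, and -1.99 at 72 h for its second probe set, while MYB gave -1.31 at 72 h. Among growth and amino acid genes the differences were -1.91 and -1.90 for MYC, -1.81 and -2.61 for SLC1A4, -0.95 and -1.04 for SLC1A5, -1.26 and -0.82 for SLC3A2, and -2.06 and -3.11 for SLC7A5. At 72 h they were -3.06 for DDIT4 and -1.78 for ASS1. The remaining genes were ZFP36L2 (-2.70 and -2.72), IL17RA (-3.55 and -3.15), KCNAB2 (-3.88 and -4.38), POLD1 (-1.45 and -5.17) and, at 72 h, MCM2 (-1.49).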

How the results depend on the processing

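Each value was recomputed under 16 alternatives that changed 1 choice each. Of the named-gene differences, 1217 kept their direction and side of the threshold, 15 newly passed it and 6 changed sign. Of the list medians, 295 moved by less than the replicate spread, 88 by more, and 17 changed sign.

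The count of 0 called at 24 h became 4 with no filter, 2 without a mean-variance trend and 12 against the mean of all 4 control groups, and 0 to 1 when 1 array was left out. The 397 at an unadjusted p under 0.05 became 748 against all 4 control groups, and 263 to 600 with 1 array left out. Induced replicate 1 alone gave 3 calls with the floor at the 50th percentile, 25 with no filter, 3 without a trend and 1 against all controls, where the main count was 0. Induced replicate 2 alone, with 1 call, gave 3 with the floor at the 50th percentile or median centring, 64 with no filter and 9 against all controls. It gave 0 with the floor at the 30th percentile, the generalised log, quantile normalization, only the 4 arrays of 24 h, no trend, or (0 to 0) a control left out. The effect at 48 h less that at 24 h gave 382 calls, 942 against all controls and 126 to 372 with 1 array left out. At 72 h it gave 1135, 1767 against all controls and 720 to 1085 with 1 array left out. The median in the later direction lay between 0.0716 and 0.226 with 1 array left out.

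Against all 4 control groups the median turned to -0.029 for monocyte proteins, -0.069 for leukocyte surface genes, 0.10 for MYC and ribosome biogenesis, 0.13 for the unfolded protein response and 0.0014 for histones. Median centring turned leukocyte surface genes to -0.0088, DNA replication to -0.014 and cholesterol synthesis to -0.0073, and quantile normalization turned the unfolded protein response to 0.033. Leaving out 1 array gave medians of -0.124 to 0.064 for the unfolded protein response, -0.030 to 0.087 for interferon response, -0.23 to 0.10 for NF-kB genes, -0.38 to 0.17 for immediate early genes, -0.021 to 0.074 for cholesterol synthesis and -0.64 to 0.18 for erythroid markers. Against all controls MAGED2 gave -0.20 and SAT1 -0.034. With 1 array left out CTSG gave -0.37 to 0.20 (second probe set -0.55 to 0.25) and POLD1 -0.17 to 0.15. The cause of these shifts was not tested.

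With the replicate number as a block, 0 probe sets were called at 24 h, and 437 (16 arrays) or 408 (within time) had an unadjusted p under 0.05. Induced replicate 2 alone gave 2 and 0 calls, and the later differences 394 and 129 at 48 h and 1169 and 927 at 72 h. The labels do not tell whether same-numbered arrays share more than a number. Their deviations correlated at -0.15 to 0.25 over 28 pairs of groups.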
